A study of Mus musculus with 16 samples.

Results

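Genes of type 2 lymphocytes were read out in lamina propria immune cells of the mouse colon and ileum. The 10 genes were taken by symbol from the 35647 genes of the deposited table, and all 10 were found: the transcription factor Gata3, the cytokines Il4, Il5, Il13 and Areg, the cytokine receptors Il1rl1, Il17rb and Il9r, the neuropeptide receptor Nmur1 and the lectin-like receptor Klrg1. All 10 passed the filter on low counts in every comparison. The rule for their choice names genes and uses no measured value, but it was written with earlier results of these data known.

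Type 2 immunity is the arm of the immune response directed at helminths and allergens, and it also takes part in the repair of epithelium. Its lymphocytes are T helper 2 (Th2) cells and group 2 innate lymphoid cells (ILC2s), both of which depend on Gata3 and make interleukins 4, 5 and 13. ILC2s carry no antigen receptor and answer to signals of their tissue, among them IL-33, IL-25 and the neuropeptide neuromedin U, which enteric neurons release. Several of these genes are shared: regulatory T cells of the gut can express Gata3, Il1rl1, Klrg1 and Areg, and mast cells and basophils can express Il4, Il13 and Il1rl1.

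Each strain was studied in both tissues, with 4 libraries for each combination, 1 from each mouse. The mice were of wild-type genotype, had been germ-free, and were then colonised for 5 weeks with a single bacterium, the gut commensal *Bifidobacterium breve*. They received either the wild-type strain (WT) or a Δchat strain that does not produce acetylcholine, so WT and Δchat name the bacterium and not the mouse. No germ-free mice without a bacterium were among the samples, and the age and sex of the mice are not given in the sources used here. Colon and ileum cells were enriched on a Percoll gradient of 40% and 80%, without a sort for any cell type, and bulk RNA-seq averages over all of them.

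Libraries held between 15.9 and 23.6 M (M, mega) estimated counts, and levels are given as CPM (counts per M counts, scaled by TMM over all 16 libraries). Position genes were read as a check of the tissue labels: Hoxa13, Hoxb13, Hoxd11 and Hoxd13, which mark the distal gut, were at 0 in all 4 ileum Δchat libraries and at no more than 0.225 CPM in an ileum WT library. Of 8 colon position genes, 5 were lower and 1 (Car4) higher in ileum with WT, beside 15.1% and 13.7% of all genes. With Δchat 7 were lower, beside 5.03% of all genes. Their sum, to which Car4 adds most in ileum, was nonetheless 18.6 to 36.8 CPM in ileum WT and 19.4 to 41.4 CPM in colon WT. Libraries of 2 mice stand apart before any result. Both libraries of Δchat mouse 2 were high in Foxp3, the factor that defines regulatory T cells, with 73.4 CPM in colon and 88.3 CPM in ileum, against 10.03 to 15.4 CPM and 8.48 to 12.7 CPM in the other Δchat libraries. Foxp3 is 1 of 7 markers of these cells, whose sum stood apart less. In this mouse the sum was 590 CPM in colon and 891 CPM in ileum, against 372 to 469 CPM and 511 to 645 CPM. The colon library of Δchat mouse 3 held 4068 CPM over 15 epithelial markers, against 274 to 343 CPM in the other 3 colon Δchat libraries and 60 to 260 CPM in colon WT, so that every colon Δchat library lay above every colon WT library.

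Promoters are shown first for Nmur1 and Il17rb, which differed between ileum and colon with both strains. Those of Il13 and Il5, of 1 gene cluster on chromosome 11, follow. Both were higher in ileum than in colon with WT, and both were highest in mouse 2 and lowest in mouse 4 of ileum WT. Their levels correlated weakly over all libraries (r = 0.39 with group means taken away), with Il5 at only 0 to 50 counts in a library. The windows are RefSeq promoters on GRCm38.p6, 250 bases before to 50 after an annotated start, 5′ to 3′ on the gene's strand. Capitals mark GATA, the letters at the core of the sites that Gata3 and its relatives bind, or its reverse complement TATC. Nmur1 has 2 annotated starts, at chr1:86389312-86389611 and chr1:86388092-86388391, both on the minus strand. Il17rb lies at chr14:30008847-30009146 and Il13 at chr11:53634653-53634952, both on the minus strand, and Il5 at chr11:53720544-53720843 on the plus strand.
Nmur1 start site 1: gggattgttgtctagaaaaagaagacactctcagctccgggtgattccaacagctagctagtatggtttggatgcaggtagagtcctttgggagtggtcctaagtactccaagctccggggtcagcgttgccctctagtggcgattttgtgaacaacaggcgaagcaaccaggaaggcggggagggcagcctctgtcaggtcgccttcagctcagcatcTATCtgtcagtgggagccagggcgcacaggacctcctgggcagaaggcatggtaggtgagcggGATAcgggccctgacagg
Nmur1 start site 2: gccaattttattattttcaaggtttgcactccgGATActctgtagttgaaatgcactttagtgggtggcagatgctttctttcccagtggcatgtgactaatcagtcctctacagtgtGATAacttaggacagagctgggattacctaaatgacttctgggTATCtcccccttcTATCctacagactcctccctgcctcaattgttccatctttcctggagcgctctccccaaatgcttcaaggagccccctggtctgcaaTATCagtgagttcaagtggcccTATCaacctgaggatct
Il17rb: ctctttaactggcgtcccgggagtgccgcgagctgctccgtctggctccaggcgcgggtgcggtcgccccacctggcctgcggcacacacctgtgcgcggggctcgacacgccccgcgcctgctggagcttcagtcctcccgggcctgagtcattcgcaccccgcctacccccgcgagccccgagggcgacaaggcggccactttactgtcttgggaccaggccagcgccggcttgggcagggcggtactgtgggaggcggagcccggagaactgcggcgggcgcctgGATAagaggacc
Il13: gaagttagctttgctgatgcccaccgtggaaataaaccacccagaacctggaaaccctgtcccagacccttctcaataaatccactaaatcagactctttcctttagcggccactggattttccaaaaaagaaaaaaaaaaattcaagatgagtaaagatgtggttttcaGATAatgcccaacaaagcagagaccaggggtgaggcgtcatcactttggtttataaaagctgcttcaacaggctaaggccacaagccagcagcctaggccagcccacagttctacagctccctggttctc
Il5: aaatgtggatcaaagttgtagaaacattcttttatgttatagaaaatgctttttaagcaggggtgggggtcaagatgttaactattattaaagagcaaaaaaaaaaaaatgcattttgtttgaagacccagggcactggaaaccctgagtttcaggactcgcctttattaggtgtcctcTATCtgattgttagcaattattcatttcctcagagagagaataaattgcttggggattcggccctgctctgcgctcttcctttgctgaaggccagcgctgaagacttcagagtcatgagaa
The second Nmur1 start held 6 matches, the first 2, and the other windows 1 each. A promoter was found for 9 of the 10 genes, with 12 windows in all, and 8 of the 9 held GATA on either strand in at least 1 window. Of 32851 mouse promoter windows in the same table, 57.9% held it. The longer AGATAA, read on both strands and always overlapping a GATA, was in windows of 3 genes (Il13, Il1rl1 and Il9r) and in 11.2% of all promoter windows. Both shares are of single windows, whereas a gene with 2 starts, such as Nmur1, had more windows to match, so the counts are not like for like. The match is a description of these letters and not of a bound site.

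With WT *B. breve*, the type 2 genes were higher in ileum than in colon. Of the 10, 7 were higher and 1 lower at an adjusted p under 0.05 by edgeR's quasi-likelihood test, where 13.7% of all 15198 genes tested were higher and 15.1% lower. Their median log2 fold change was 1.74, against -0.04 over all genes tested. With Δchat *B. breve* only Nmur1 and Il17rb passed the same test, both higher in ileum, where 8.31% of all genes did. With the mouse as a block, which pairs the tissues by replicate number, 6 members were called with WT (Il5 and Il13 were lost) and 0 with Δchat. Without that block, the median log2 fold change of the 10 genes with Δchat was 0.53, against -0.02 over all genes. DESeq2, run without a block, called 9 of the 10 with WT, where it called 33% of all genes, and 2 with Δchat, where it called 18.4%.

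No member passed the test between strains in either tissue. In colon 0.00682% of 14660 genes were called and 0 of the 10, and 9 of the 10 had a higher level with Δchat, against 51% of all genes. In ileum 0.0207% of 14496 genes were called and 0 of the 10, and 8 of the 10 had a lower level with Δchat, whereas 53.2% of all genes had a higher one. The strains did not overlap in colon for Gata3 and Nmur1, both higher with Δchat, against 3.72% of all genes, and in ileum they overlapped for all 10, against 7.19% of genes without overlap. The 10 genes vary together in the same libraries, so these counts are not of independent genes. In colon WT, mouse 1 was the lowest for 9 of them. Markers of other cells moved with the strain in colon. All 15 epithelial markers had a higher level with Δchat and an unadjusted p under 0.05, and all 11 B and plasma cell markers had a lower level, 8 of them at that p. The share of all genes lower in colon at that p is not given here. The B and plasma cell markers summed to 47318 to 88248 CPM with WT and 24544 to 33649 CPM with Δchat in colon, and to 108909 to 197979 CPM and 66465 to 114902 CPM in ileum. None of these markers passed after adjustment by edgeR, DESeq2 called 6 B and plasma cell markers lower in colon, and their part in the strain values of the 10 genes was not tested. At an unadjusted p under 0.05 there were 3 members in colon, all higher with Δchat (7.99% of all genes), and 2 in ileum, both lower (6.1% of all genes). DESeq2 called 0 members in colon, where it called 2.19% of genes, and 2 in ileum, Nmur1 and Il5, where it called 2.64%.

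**Figure D1:**
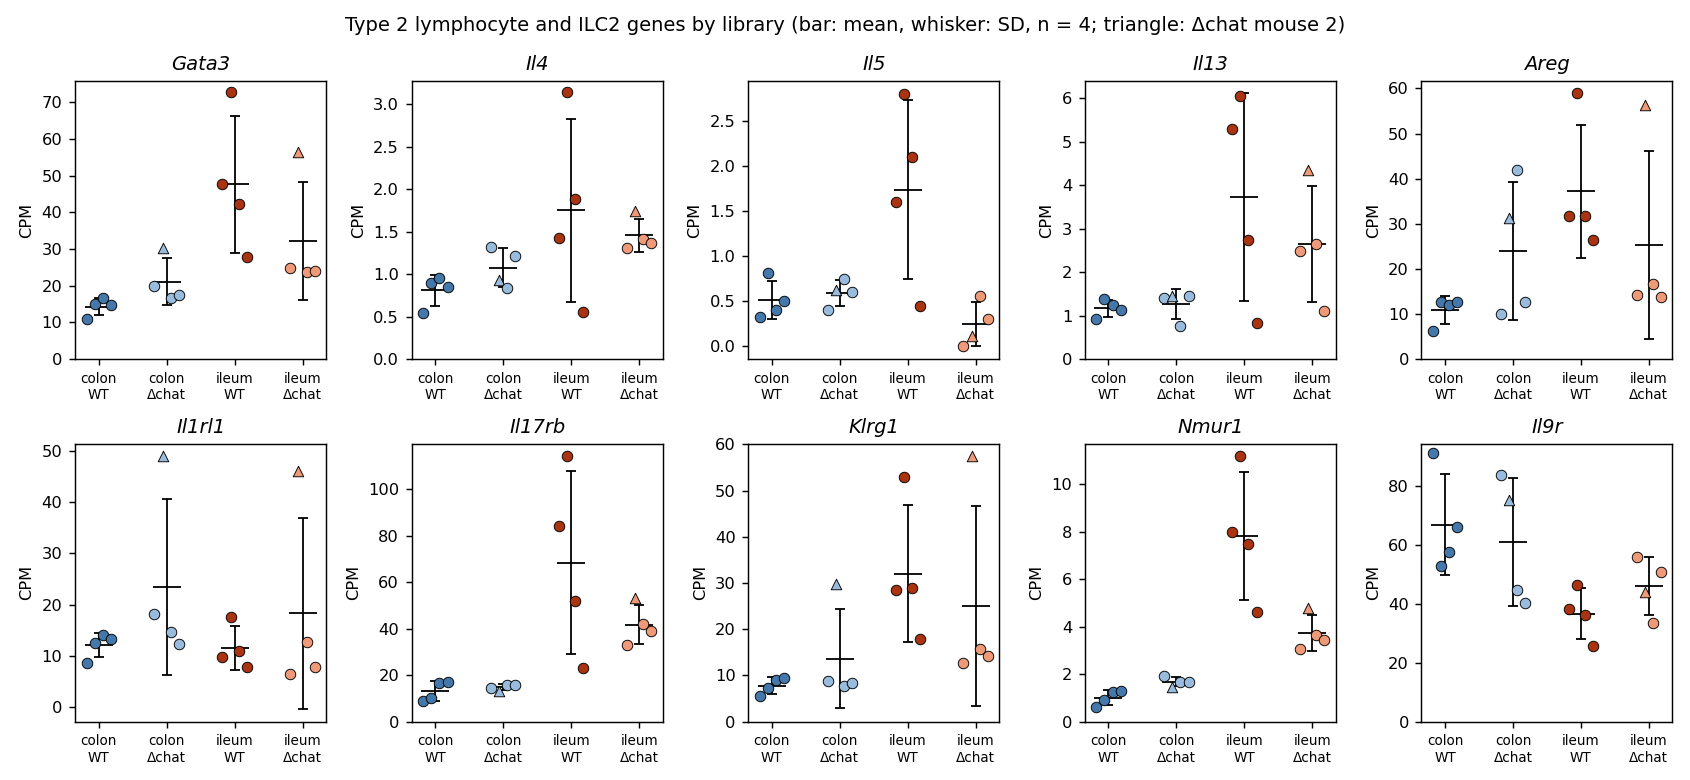
CPM of each of the 10 genes (vertical axes) in the 4 groups of tissue and strain, with 1 point per library and the mean ± SD of 4 libraries. The ileum WT points of Nmur1, 4.62 to 11.2 CPM, all lie above the colon points, and the triangle of Δchat mouse 2 stands far above the rest of its own group for Il1rl1 and Klrg1 in each tissue.

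Gata3 is the transcription factor that commits lymphocytes to the type 2 fate and is also present in gut regulatory T cells. Its level was 10.9, 14.95, 16.6 and 14.8 CPM in the colon of WT mice 1 to 4, and 19.9, 30.4, 16.6 and 17.5 CPM in colon of the Δchat mice. In ileum it was 47.6, 72.7, 42.3 and 27.9 CPM with WT and 24.8, 56.4, 23.6 and 24.1 CPM with Δchat. All 4 WT ileum libraries thus exceeded all 4 WT colon libraries, and the ileum ranges of the strains overlapped. The strains did not overlap in colon, by a margin in the second decimal between the highest WT library at 16.57 CPM and the lowest Δchat library at 16.63 CPM. On the log2 scale ileum exceeded colon by 1.73 ± 0.33 (SE) with WT (adjusted p = 0.00256), and this difference was 0.61 ± 0.32 with Δchat (adjusted p = 0.229). Between strains it was 0.57 ± 0.21 in colon (adjusted p = 0.335) and -0.59 ± 0.37 in ileum (adjusted p = 0.591). Whether more cells expressed Gata3 or each cell held more of its RNA cannot be told apart in bulk samples, here and for every gene below.

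Il4, Il13 and Il5 encode the cytokines by which Th2 cells and ILC2s act on B cells, epithelium and eosinophils. The 3 genes lie in 1 cluster, in the order Il4, Il13, Rad50, Il5 and Irf1 on chromosome 11. All 3 were rare, with at most 108 counts in a library, so that counting error weighs more on them than on the receptors.

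Il13, which drives mucus production and tuft cell expansion in the gut, was at 0.930, 1.39, 1.24 and 1.13 CPM in colon with WT and at 1.41, 1.46, 0.750 and 1.46 CPM with Δchat. In ileum it was at 5.30, 6.06, 2.73 and 0.834 CPM with WT and at 2.48, 4.36, 2.66 and 1.11 CPM with Δchat. Of the ileum libraries, 3 of 4 in each strain lay above every colon library, and the fourth did not. The tissue difference was 1.66 ± 0.51 with WT (adjusted p = 0.0246) and 1.06 ± 0.50 with Δchat (adjusted p = 0.179). With the mouse as a block the WT difference no longer passed (adjusted p = 0.0790), nor did it without any 1 of 4 libraries (WT mouse 1 or 4 in colon, WT mouse 1 or 2 in ileum; adjusted p up to 0.0760). Between strains the value was 0.12 ± 0.29 in colon (adjusted p = 0.881) and -0.52 ± 0.59 in ileum (adjusted p = 0.775).

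Il4, the cytokine of Th2 differentiation and of the switch to immunoglobulin E, ran from 0.547 to 0.958 CPM in colon with WT (0.812 ± 0.183, SD, n = 4) and from 0.833 to 1.32 CPM with Δchat (1.07 ± 0.230). Its 4 ileum WT libraries held 1.43, 3.14, 1.88 and 0.556 CPM, and the ileum Δchat libraries 1.31, 1.74, 1.41 and 1.37 CPM. The WT ileum spanned a range wider than all other libraries together. Ileum against colon gave 1.10 ± 0.40 with WT, which just missed the threshold (adjusted p = 0.0503), and 0.44 ± 0.39 with Δchat (adjusted p = 0.483). Between strains the values were 0.40 ± 0.29 in colon (adjusted p = 0.566) and -0.29 ± 0.45 in ileum (adjusted p = 0.848).

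Il5, the growth and survival factor of eosinophils, had the largest ratio between strains among the 10 genes and the fewest counts. In ileum of WT mice it was at 1.61, 2.81, 2.11 and 0.445 CPM (27, 50, 47 and 8 counts), and in ileum of Δchat mice at 0, 0.109, 0.557 and 0.300 CPM (0, 2, 13 and 7 counts). A count of 0 allows up to 3 counts, or 0.196 CPM, in that library. The strains overlapped through WT mouse 4, whose 0.445 CPM lay under the 0.557 CPM of Δchat mouse 3. The fitted log2 fold change of Δchat over WT was -2.74 ± 0.80 (adjusted p = 0.275), and DESeq2 gave -2.80 with an adjusted p of 0.0322. In colon Il5 ran from 0.328 to 0.808 CPM with WT and from 0.397 to 0.750 CPM with Δchat, a log2 fold change of 0.23 ± 0.39 (adjusted p = 0.826).

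Between tissues Il5 was higher in WT ileum than in WT colon, by 1.75 ± 0.63 on the log2 scale (adjusted p = 0.0492), although WT mouse 4 in ileum lay within the colon range. This call was lost with the mouse as a block (adjusted p = 0.0755) and when any of 7 of the 8 libraries was left out in turn (adjusted p up to 0.141). With Δchat the tissue value had the other sign, -1.19 ± 0.68 (adjusted p = 0.265). Il13, of the same cluster, had no such change of sign, and the Δchat value passed for neither gene. Annotated antisense genes overlap exons of Il5 (Gm12214) and of Gata3 (Gm13256), and 9230102O04Rik overlaps Gata3 on the same strand, where counting by strand would not separate them. The 3 genes were not analysed here.

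Areg encodes amphiregulin, a ligand of the epidermal growth factor receptor that ILC2s and regulatory T cells make in tissue repair and that epithelium makes too. Colon WT libraries held 6.29, 12.7, 11.9 and 12.6 CPM, and colon Δchat libraries 10.01, 31.4, 41.9 and 12.6 CPM. Ileum libraries held 31.8, 58.9, 31.7 and 26.3 CPM with WT and 14.1, 56.4, 16.6 and 13.7 CPM with Δchat. The lowest WT ileum library exceeded the highest WT colon library, whereas the Δchat ranges of the tissues overlapped.

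Areg was higher in ileum than in colon with WT by 1.77 ± 0.54 (adjusted p = 0.0264), and the difference was 0.07 ± 0.52 with Δchat (adjusted p = 0.949). The WT call was lost without WT mouse 1 in colon (adjusted p = 0.0785) or WT mouse 2 in ileum (adjusted p = 0.07315). Between strains the values were 1.16 ± 0.48 in colon (adjusted p = 0.360) and -0.60 ± 0.52 in ileum (adjusted p = 0.704). The highest colon value was in the epithelium-rich library of Δchat mouse 3. That library also held 144 CPM of Hbegf, another ligand of the same receptor, against 15.5 to 35.5 CPM in the other colon libraries. With an epithelial score as a covariate the colon strain value of Areg was 0.19. The epithelial marker sums did not overlap between the colon strains, so this fit cannot separate the strain from epithelial RNA. The part of epithelial RNA in the Areg level was not tested further.

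Nmur1 encodes the receptor of neuromedin U, and among lymphocytes it marks ILC2s. In colon it was at 0.602, 0.898, 1.24 and 1.30 CPM with WT and at 1.94, 1.46, 1.67 and 1.66 CPM with Δchat. In ileum it was at 7.97, 11.2, 7.49 and 4.62 CPM with WT and at 3.07, 4.79, 3.64 and 3.43 CPM with Δchat. Every ileum library lay above every colon library. Within tissues, the colon strains did not overlap, and the ileum strains overlapped only through WT mouse 4 and Δchat mouse 2.

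The order of the Nmur1 means was therefore ileum WT (7.81 ± 2.69 CPM, SD, n = 4), ileum Δchat (3.73 ± 0.744 CPM), colon Δchat (1.68 ± 0.197 CPM) and colon WT (1.01 ± 0.323 CPM). Ileum exceeded colon 7.69-fold with WT, or 2.94 ± 0.29 on the log2 scale (adjusted p = 5.1e-05), and this was called without any 1 library and with the mouse as a block. With Δchat ileum exceeded colon 2.21-fold, 1.15 ± 0.27 on the log2 scale (adjusted p = 0.0129), a call lost with the mouse as a block (adjusted p = 0.0536). The neighbours in this order that share a tissue did not pass the test: the strain value was -1.09 ± 0.27 in ileum, a 2.13-fold lower level with Δchat (adjusted p = 0.202), and 0.74 ± 0.30 in colon (adjusted p = 0.343).

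The strain values of Nmur1 thus had opposite signs in the 2 tissues, and the difference between them was -1.80 ± 0.39 (adjusted p = 0.199). DESeq2 called the ileum strain difference, at -1.08 (adjusted p = 0.0157), and the difference between tissues, at -1.83 (adjusted p = 0.00799). In edgeR the ileum value ran from -1.27 to -0.86 when each library was left out in turn, with adjusted p between 0.123 and 0.427. The counts behind these values were 11 to 44 per colon library and 47 to 199 per ileum library. Nmu, the gene of the ligand, was at 0 in 15 of the 16 libraries, and a related peptide gene, Nms, likewise in 15 of 16. A count of 0 allows up to 3 counts, between 0.120 and 0.196 CPM depending on the library.

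Il17rb encodes the receptor chain for IL-25, the cytokine that gut tuft cells release. Colon libraries held 8.92, 10.4, 16.8 and 17.0 CPM with WT and 14.6, 13.02, 15.8 and 15.97 CPM with Δchat. Ileum libraries held 84.2, 114, 52.0 and 23.1 CPM with WT and 33.0, 53.2, 42.0 and 38.9 CPM with Δchat. As with Nmur1, every ileum library exceeded every colon library. The WT ileum libraries spread widely (68.4 ± 39.5 CPM, SD, n = 4), and WT mouse 4 lay below all Δchat ileum libraries.

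Ileum exceeded colon in Il17rb 5.14-fold with WT, 2.36 ± 0.38 on the log2 scale (adjusted p = 9.1e-04), also without any 1 library. With Δchat the difference was 1.49 ± 0.37 (adjusted p = 0.0154), and the call was lost with the mouse as a block (adjusted p = 0.0646) or without Δchat mouse 2 in ileum (adjusted p = 0.0508). Between strains the values were 0.17 ± 0.22 in colon (adjusted p = 0.756) and -0.74 ± 0.44 in ileum (adjusted p = 0.577). Actr8, a gene on the opposite strand, overlaps exons of Il17rb in the GENCODE annotation, and the sources used here do not give whether counting used the strand. Actr8 had 25.8 ± 3.67 CPM in colon WT and 40.3 ± 12.96 CPM in ileum WT, and its level followed that of Il17rb with r = 0.93 over the 16 libraries. It was itself higher in ileum with WT, by 0.64 ± 0.19 (adjusted p = 0.0209), and did not pass with Δchat (0.45 ± 0.19, adjusted p = 0.126). Reads of the overlap cannot be told apart if strand was not used.

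Il1rl1 encodes ST2, the receptor of the alarmin IL-33, carried by ILC2s, Th2 cells, mast cells and gut regulatory T cells. Colon libraries held 8.70, 12.4, 14.0 and 13.3 CPM with WT and 18.1, 48.9, 14.7 and 12.2 CPM with Δchat. Ileum libraries held 9.70, 17.6, 10.98 and 7.84 CPM with WT and 6.54, 46.0, 12.7 and 7.93 CPM with Δchat. Both libraries of Δchat mouse 2 stood far above the others, and the 4 groups otherwise overlapped. Like Il4, Il1rl1 had no tissue difference that passed in either strain, with -0.07 ± 0.58 for WT (adjusted p = 0.938) and -0.36 ± 0.57 for Δchat (adjusted p = 0.714). Between strains it was 0.96 ± 0.43 in colon (adjusted p = 0.378) and 0.63 ± 0.63 in ileum (adjusted p = 0.744). Without Δchat mouse 2 the strain values were 0.32 in colon and -0.35 in ileum.

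Klrg1 encodes an inhibitory receptor for cadherins found on mature ILC2s, effector T cells, natural killer cells and a subset of regulatory T cells. Its colon levels were 5.53, 7.32, 9.06 and 9.36 CPM with WT and 8.78, 29.8, 7.63 and 8.36 CPM with Δchat. Its ileum levels were 28.4, 52.8, 28.8 and 17.96 CPM with WT and 12.6, 57.4, 15.7 and 14.3 CPM with Δchat. All WT ileum libraries lay above the WT colon libraries, and the highest value in each Δchat group was again mouse 2. Ileum exceeded colon by 2.03 ± 0.57 with WT (adjusted p = 0.0178), a call lost without WT mouse 1 in colon (adjusted p = 0.0574), and by 0.87 ± 0.55 with Δchat (adjusted p = 0.316). Between strains the values were 0.81 ± 0.46 in colon (adjusted p = 0.465) and -0.39 ± 0.56 in ileum (adjusted p = 0.832), and 0.09 and -1.19 without Δchat mouse 2. Markers of cytotoxic and natural killer cells moved with the tissue as well: their 12 genes summed to 125 to 138 CPM in colon WT and 250 to 311 CPM in ileum WT, and their part in the Klrg1 level was not tested.

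Il9r, the receptor chain for IL-9, a growth factor of mast cells and ILC2s, was the only member lower in ileum at an adjusted p under 0.05. It was at 91.2, 52.9, 57.7 and 66.2 CPM in colon with WT and at 83.7, 75.3, 44.7 and 40.3 CPM with Δchat. In ileum it was at 38.4, 46.5, 36.4 and 25.8 CPM with WT and at 56.0, 44.2, 33.4 and 50.8 CPM with Δchat. The tissues did not overlap with WT and did with Δchat. Ileum was 1.82-fold lower with WT, or -0.87 ± 0.26 on the log2 scale (adjusted p = 0.0228), and the call was lost without WT mouse 1 in colon (adjusted p = 0.0961) or WT mouse 4 in ileum (adjusted p = 0.0733). With Δchat the value was -0.40 ± 0.26 (adjusted p = 0.318). Between strains the values were -0.13 ± 0.27 in colon (adjusted p = 0.863) and 0.30 ± 0.20 in ileum (adjusted p = 0.613), each with the sign opposite to that of most members. Il9, the ligand gene, was at 0 in 15 of 16 libraries.

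**Figure D2:**
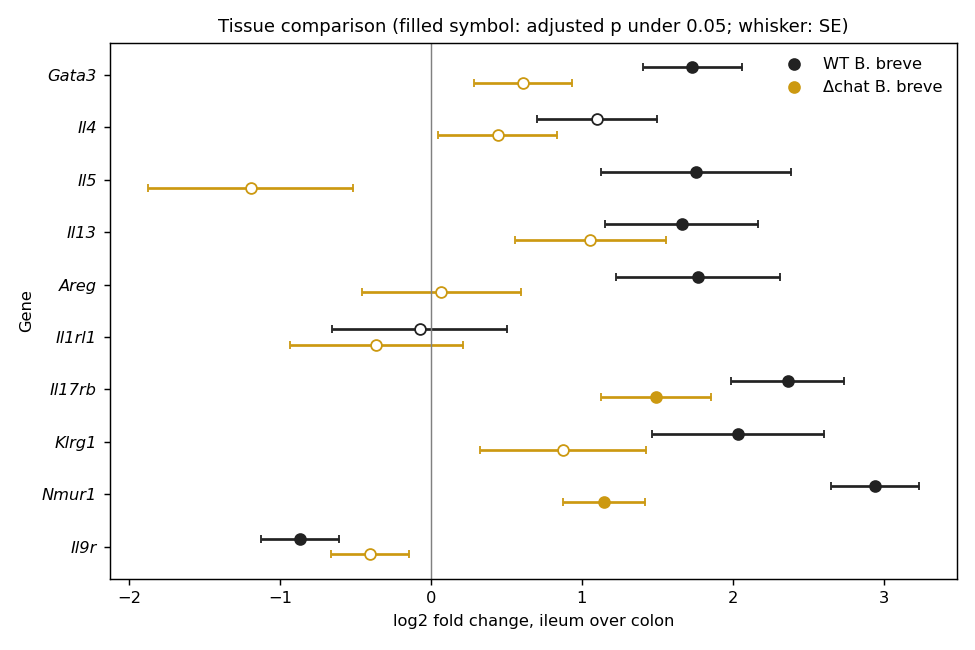
Log2 fold change of ileum over colon (horizontal axis) for the 10 genes, with WT *B. breve* in black and Δchat in ochre, whiskers showing the SE and filled symbols an adjusted p under 0.05. With WT 7 symbols on the right and Il9r on the left are filled, and with Δchat those of Nmur1 (1.15) and Il17rb (1.49).

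In the comparison of tissues with WT, the 2 groups did not overlap for 5 of the 10 genes in the higher direction (Gata3, Areg, Il17rb, Klrg1 and Nmur1) and for 1 in the lower (Il9r), against 16.3% and 18.6% of all genes. With Δchat they did not overlap for Nmur1 and Il17rb, against 9.4% in the higher direction. T cell markers moved with the tissue. Of 11 markers, 9 were higher in ileum with WT and 8 with Δchat, beside 13.7% and 8.31% of all genes. In colon their sum was 296 to 359 CPM with WT and 219 to 456 CPM with Δchat. In ileum it was 562 to 754 CPM with WT and 464 to 665 CPM with Δchat. None of the 11 was at 0 in a group. Their part in the tissue differences of the type 2 genes was not tested. Markers of leukocytes of all kinds had a lower sum in ileum WT (2374 to 2803 CPM) than in colon WT (2858 to 4225 CPM).

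**Figure D3:**
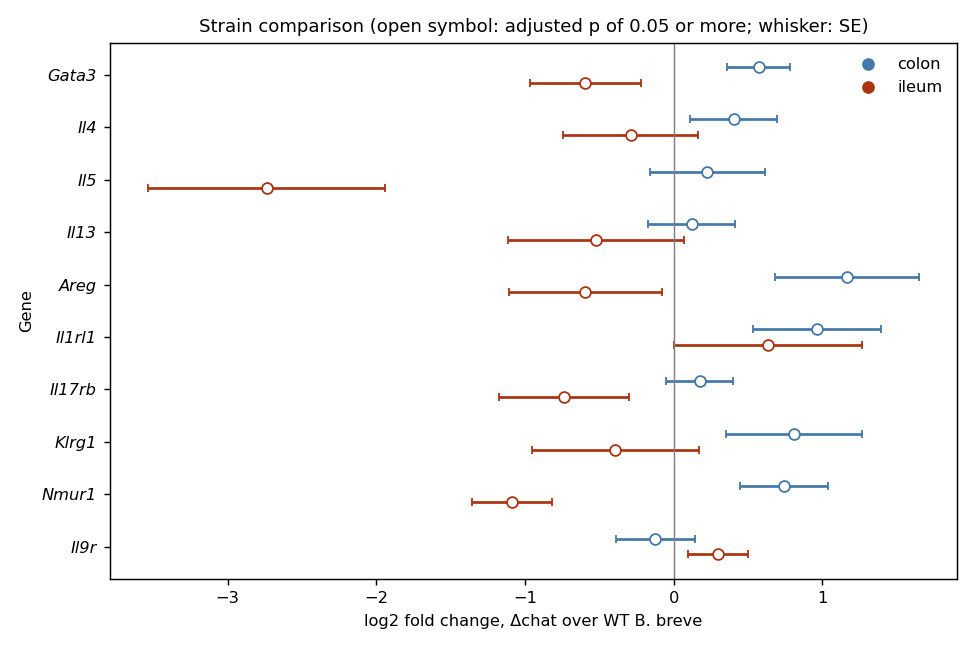
Log2 fold change of Δchat over WT (horizontal axis) for the 10 genes in colon and in ileum, with whiskers showing the SE. In colon 9 of 10 symbols lie above 0 and in ileum 8 of 10 lie below 0, and none passed an adjusted p of 0.05.

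The strain effect was also compared between the tissues. None of the 10 genes passed, where 0.0592% of 15198 genes were called in edgeR. At an unadjusted p under 0.05 there were 4 members (Nmur1, Il5, Gata3 and Areg), all with a lower value in ileum than in colon, as had 3.3% of all genes, and DESeq2 called Nmur1 alone, where it called 0.393% of genes. The values were -2.95 ± 0.93 for Il5 (adjusted p = 0.570), -1.12 ± 0.46 for Gata3 (adjusted p = 0.625) and -1.70 ± 0.75 for Areg (adjusted p = 0.631). Over the 10 genes the median was -0.997, against 0.02 over all genes, and 9 of 10 were negative. The strain and tissue comparisons share libraries, so these counts are not independent of those above. The 10 genes also vary together in the same libraries, so their signs are not independent of each other.

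Within groups, single libraries stood at the ends for many of the 10 genes. Of the WT ileum libraries, that of mouse 2 was the highest for 10 of the 10 genes and that of mouse 4 the lowest for 10 of 10. The sum of T cell markers was also highest in mouse 2 (754 CPM), but it was 656 CPM in mouse 4, above mice 1 (562 CPM) and 3 (585 CPM). In colon WT, mouse 1 was the lowest for 9 of 10 genes and the highest for Il9r. With WT these ends did not carry over to the other tissue. The colon library of mouse 2 was the highest for 3 genes and that of mouse 4 the lowest for 0. The ileum library of mouse 1 was the lowest for 0. In ileum Δchat, mouse 2 was the highest for 8 of 10, all but Il5 and Il9r, and in colon Δchat it was the highest for 4. The ileum WT range of single genes, such as 23.1 to 114 CPM for Il17rb, thus has the same 2 libraries at its ends for all 10.

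**Figure D4:**
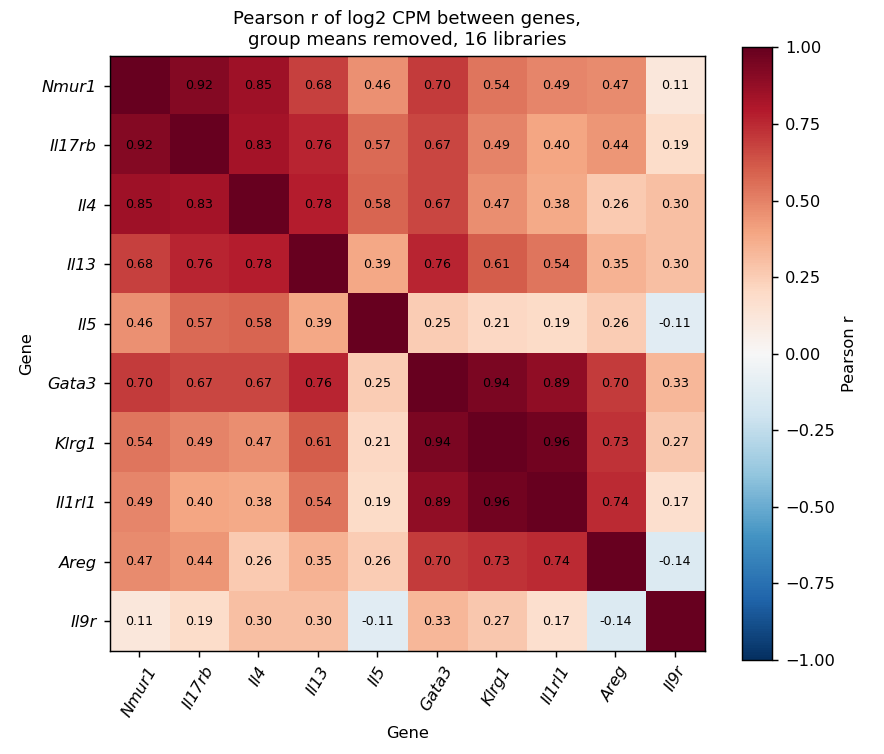
Pearson r between pairs of the 10 genes over 16 libraries, from log2 CPM after the mean of each group was taken away, with colour for the size of r. Nmur1, Il17rb, Il4 and Il13 are high with each other, as are Gata3, Klrg1, Il1rl1 and Areg, and Gata3 is at 0.67 to 0.76 with the first 4 as well, whereas Il5 and Il9r are low with most.

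With group means taken away, several members varied together across the 16 libraries. Nmur1 went with Il17rb (r = 0.92) and Il4 (r = 0.85), and Il17rb with Il4 (r = 0.83) and Il13 (r = 0.76). Gata3 went with Klrg1 (r = 0.94) and Il1rl1 (r = 0.89), and Klrg1 with Il1rl1 (r = 0.96). Gata3 also went with Il13 (r = 0.76), Nmur1 (r = 0.70), Il4 (r = 0.67) and Il17rb (r = 0.67), so that these genes did not fall into separate sets. The value was 0.61 for Klrg1 with Il13, 0.54 for Nmur1 with Klrg1 and 0.49 for Nmur1 with Il1rl1. These are descriptions over 16 libraries that share mice in pairs, and both libraries of Δchat mouse 2 are among the points.

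Regulatory T cell markers followed Gata3, Klrg1, Il1rl1 and Areg in some libraries and not in others. Foxp3 was at 12.6 to 15.6 CPM in colon WT and at 30.2 to 68.5 CPM in ileum WT, with the WT maximum in mouse 2 as well. In ileum WT the marker sums were 715, 820, 647 and 793 CPM, so that mouse 4, the lowest for the 10 members, was the second highest here. The 7 markers summed in colon to 299 to 427 CPM with WT and 372 to 590 CPM with Δchat, and in ileum to 647 to 820 CPM with WT and 511 to 891 CPM with Δchat, and none was at 0 in a group. Their part in the levels of Klrg1, Il1rl1, Gata3 and Areg was not tested. Mast cell and basophil markers, 11 genes, summed in ileum to 134 to 158 CPM with WT and 83 to 116 CPM with Δchat, and in colon to 70 to 74 CPM and 75 to 104 CPM. The sum hides that single markers went both ways between tissues. With WT 4 were higher and 4 lower in ileum, beside 13.7% and 15.1% of all genes. Among them Hdc (1.91) and Kit (1.005) were higher and Mcpt4 (-3.27) and Tpsb2 (-4.16) lower. With Δchat 1 was higher and 5 lower, beside 8.31% and 5.03% of all genes. Between strains 0 of these markers passed by edgeR. DESeq2 called Mcpt1 in colon, higher with Δchat, beside 2.19% of all genes. In ileum it called Hdc and Kit, both lower with Δchat, beside 2.64% of all genes. The part of mast cells and basophils in Il4, Il13 and Il1rl1 was not tested either.

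**Figure D5:**
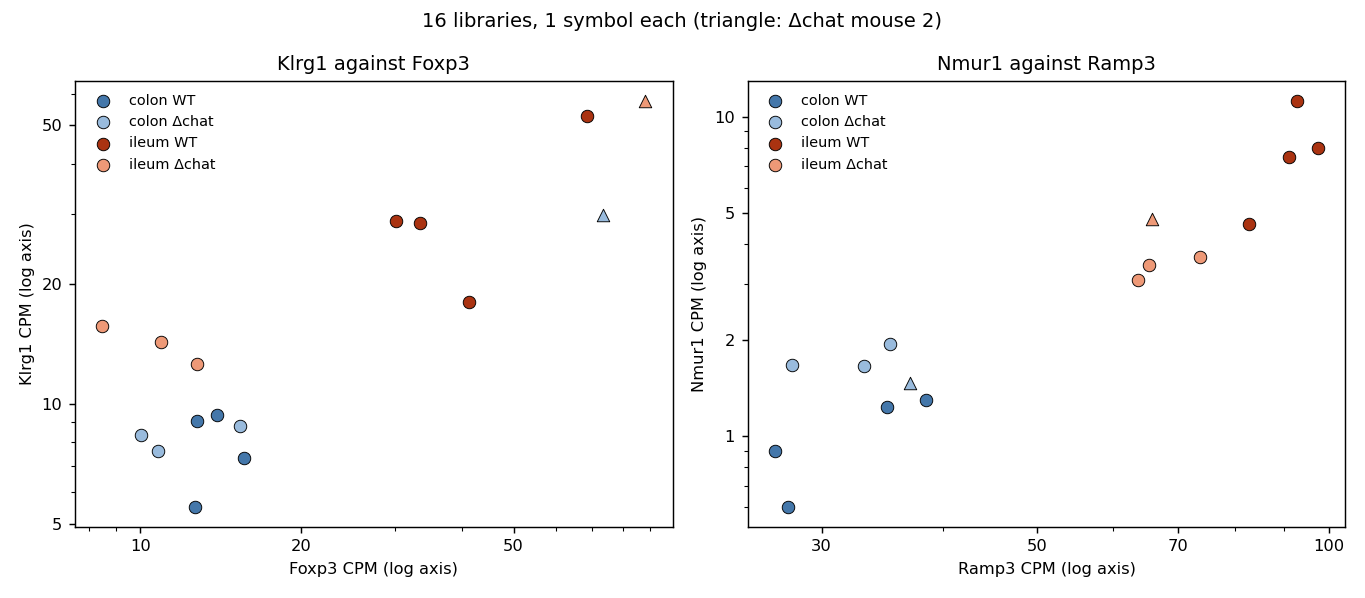
Left, Klrg1 against Foxp3, and right, Nmur1 against Ramp3, in CPM on log axes with 1 symbol per library and triangles for Δchat mouse 2. Both triangles lie with the high Foxp3 libraries on the left, at 73.4 and 88.3 CPM, and near the other libraries of their own group on the right.

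The genes whose pattern over the 16 libraries was most like each member were named by Pearson r of log2 CPM. For Nmur1 these were Slc7a8 (r = 0.95), an amino acid transporter, Il12rb2 (r = 0.94) and Ramp3 (r = 0.94), which makes a receptor for peptides of the calcitonin family. With group means taken away these r were 0.73, 0.46 and 0.54. Fam184b (r = 0.95), Calca (r = 0.94) and Ret (r = 0.94), a receptor for glial-derived neurotrophic factors, were closest to Il17rb. Ccr4, Pcyt1a and Ikzf2 (each r = 0.96) were closest to Klrg1, and Ikzf2 encodes Helios, a factor of regulatory T cells. Lilr4b, Rgs2 and Cyth4 followed Gata3 with r from 0.95 to 0.96. With group means taken away, r was 0.73 to 0.85 for the 3 genes of Il17rb, 0.93 to 0.94 for those of Klrg1 and 0.87 to 0.90 for those of Gata3.

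For the other members the closest genes had similar or lower r. Areg went with Acot11 (r = 0.91), Rab11fip1 (r = 0.91) and Ipmk (r = 0.90), and Il9r with Nr2c2 (r = 0.95), Mindy2 (r = 0.94) and Ago1 (r = 0.94). Il1rl1 went with Mapkbp1 (r = 0.86), Cd300ld3 (r = 0.85) and Phka2 (r = 0.83). Actr8 was closest to both Il13 (r = 0.89) and Il4 (r = 0.83), with Gm15931 and Lmo4 next for Il13 and Tnfsf14 and Lmo4 for Il4. Actr8 is the gene that overlaps exons of Il17rb, so its counts may hold reads of Il17rb. Within groups r was between 0.75 and 0.94 for the genes of this paragraph. Il5 was below 1 CPM on average and was not matched. Points of these correlations share library, depth and the tissue difference.

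Other genes of ILC2s and Th2 cells were read in a list of 37 receptors, factors and products. In WT ileum 19 of the 36 tested were higher and 1 lower, beside 13.7% and 15.1% of all genes. Ramp3, which pairs with the calcitonin receptor-like receptor, was higher by 1.51 ± 0.12 on the log2 scale (adjusted p = 6.5e-06), as were Bcl11b (1.24), Cxcr6 (1.36) and Rora (1.36). Bcl11b and Rora are factors needed for ILC2 development. With Δchat 9 of 36 were higher and 2 lower, beside 8.31% and 5.03% of all genes. Ramp3 was higher by 1.01 ± 0.12 (adjusted p = 2.4e-04), Bcl11b by 0.93 and Cxcr6 by 0.92, and Ramp1, another partner chain of the same receptor, was lower in ileum (-1.37, adjusted p = 0.00183). The list's median was 0.55 with WT and 0.41 with Δchat.

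Between strains 0 of the 36 genes of that list passed in colon and 0 of 35 in ileum by edgeR. At an unadjusted p under 0.05, 6 were higher and 0 lower with Δchat in colon, and 1 was higher and 5 lower in ileum. Over all genes, 7.99% were higher in colon and 6.1% lower in ileum at that p. The shares in the other directions are not given here. DESeq2 called 0 in colon and 2 in ileum, Ramp3 and Tph1. Ramp3 in ileum was at 97.5, 92.7, 90.9 and 82.8 CPM with WT and at 63.5, 65.7, 73.6 and 65.2 CPM with Δchat, without overlap, and its log2 fold change was -0.46 ± 0.08 (adjusted p = 0.117). Tph1, the enzyme of serotonin synthesis, chosen after its values were seen, was at 5.42, 8.76, 6.73 and 1.45 CPM with WT and at 0.458, 0.817, 0.171 and 0.900 CPM with Δchat. Its log2 fold change was -3.27 ± 0.63 (adjusted p = 0.139). The mast cell and basophil markers also had a lower sum in ileum with Δchat (83 to 116 CPM) than with WT (134 to 158 CPM). Their part in the Tph1 level was not tested.

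Among 15 ligands of receptors on these cells, 9 were tested between tissues. Calca, the gene of calcitonin gene-related peptide, was higher in ileum with WT (2.54 ± 0.35, adjusted p = 3.0e-04) and with Δchat (1.94 ± 0.34, adjusted p = 0.00243). Tnfsf15 (1.49) was higher and Icosl (-0.63) lower with WT, and Il7 lower with Δchat (-1.79, adjusted p = 0.0423). No ligand passed between strains by edgeR. At an unadjusted p under 0.05, 1 was higher with Δchat in colon and 3 lower in ileum, beside 7.99% and 6.1% of all genes. DESeq2 called 0 in colon and Il33 in ileum. Il33, the ligand of the Il1rl1 product, was at 33.5, 24.8, 24.5 and 26.8 CPM in ileum WT and at 5.88, 8.005, 21.1 and 10.7 CPM in ileum Δchat, without overlap. Its log2 fold change was -1.27 ± 0.37 (adjusted p = 0.279). Il33 is made by stromal and epithelial cells rather than by lymphocytes. Over 14 stromal markers the sum was 4418 to 7084 CPM in ileum WT and 1825, 1481, 7048 and 2806 CPM in Δchat mice 1 to 4, with both Il33 and this sum highest in Δchat mouse 3, and the part of stromal RNA in the Il33 level was not tested.

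Partner chains and relatives of the receptors numbered 13. In ileum 4 were higher with WT, beside 13.7% of all genes: Il1r2 (1.85), Il18rap (0.83), Nmur2 (2.46) and Il1r1 (0.67). With Δchat 4 were higher, beside 8.31% of all genes: Jak3 (0.52), Nmur2 (2.26), Il18r1 (0.56) and Il1r2 (0.78). Nmur2 is the second receptor of neuromedin U. None passed between strains by edgeR. At an unadjusted p under 0.05, 1 was higher with Δchat in colon, and 2 were higher and 1 lower in ileum. Over all genes, 7.99% were higher in colon and 6.1% lower in ileum at that p. The share higher in ileum is not given here, so the 2 genes have no background beside them. DESeq2 called 0 in colon and Il1r2, a decoy receptor for IL-1, in ileum (edgeR -0.88 ± 0.22, adjusted p = 0.222). Of the 8 tested genes at the cytokine cluster, 3 were higher in WT ileum, beside 13.7% of all genes. They were Irf1 (0.89 ± 0.14, adjusted p = 6.1e-04) and the members Il5 and Il13. Only Irf1 (0.86) was higher in Δchat ileum, beside 8.31% of all genes. Rad50, which lies between Il13 and Il5, had 0.01 ± 0.10 between strains in colon and 0.10 ± 0.14 in ileum.

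Among 20 genes that IL-4, IL-5 and IL-13 act through or induce, 18 were tested, and 1 passed between strains in each tissue by edgeR. At an unadjusted p under 0.05, 6 were higher and 1 lower with Δchat in colon and 0 higher and 5 lower in ileum. Over all genes, 7.99% were higher in colon and 6.1% lower in ileum at that p. The shares in the other directions are not given here. DESeq2 called 4 in colon (Retnla, Mrc1 and Muc2 higher, Il5ra lower) and Alox15 in ileum. Muc2 and Clca1, both higher in colon at the unadjusted p, had log2 fold changes of 3.23 and 4.19 there. The 15 epithelial markers had a median of 3.20 in the same comparison, and the part of epithelial RNA in the 2 genes was not tested. Retnla, a product of macrophages exposed to IL-4, was higher in colon with Δchat, by 1.72 ± 0.14 (adjusted p = 0.00875). Alox15, a lipoxygenase of eosinophils and macrophages, was lower in ileum with Δchat, at -3.17 ± 0.34 on the log2 scale (adjusted p = 0.0498). The ileum WT libraries of Alox15 held 22.7, 23.9, 26.3 and 8.73 CPM, with mouse 4 the lowest as for the 10 members, and the ileum Δchat libraries between 1.80 and 2.56 CPM. The strain effect on Alox15 differed between tissues by -3.92 ± 0.56 (adjusted p = 0.0269). These calls rest on the choice of libraries: no gene at all passed between strains in colon without WT mouse 2 or 3 or Δchat mouse 1, nor in ileum without WT mouse 1, 2 or 3 or Δchat mouse 1 or 4. Of the difference between tissues no gene passed without the colon of WT mouse 1 or Δchat mouse 2 or 4, or the ileum of WT mouse 1, 2 or 3 or Δchat mouse 1, 3 or 4. Between tissues 8 of the 18 were higher and 1 lower in ileum with WT, where 13.7% and 15.1% of all genes were. With Δchat 2 were higher and 3 lower, beside 8.31% and 5.03% of all genes. Ligands of the epidermal growth factor receptor other than Areg did not pass with WT in edgeR (1 at an unadjusted p under 0.05, and Ereg by DESeq2), and with Δchat Ereg (-2.93, adjusted p = 0.0105) and Egfr itself (-1.84, adjusted p = 0.0123) were lower in ileum. Between strains 0 of them passed by edgeR. At an unadjusted p under 0.05 there were 0 in colon and 2 in ileum, both lower with Δchat, beside 6.1% of all genes. DESeq2 called 0 in colon and Ereg in ileum.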

How the data were processed

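Bulk RNA-seq had been done on 16 libraries, 4 in each group of tissue and strain, and each was assigned by its title. The deposited table holds estimated counts per gene, made by the authors. The submitters' processing notes name cutadapt 5.0, Salmon 1.4.0 and the build GRCm39. Estimated counts were rounded to whole numbers here, since 34.8 to 40.7% of them in each library were fractional. Symbols came from a table of Ensembl identifiers (35105 of 35647 matched). Promoters came from RefSeq on GRCm38.p6, another build than that of the counts, and were not joined to it by position.

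The tests were run with edgeR 4.0.16 in R 4.3.3 (filterByExpr, TMM, robust quasi-likelihood test, 2-sided, Benjamini-Hochberg adjustment over all genes tested, call under 0.05). Strains were compared in fits of 8 libraries, tissues and the difference of strain effects in 1 fit of 16. Correlations used log2 CPM with a prior count of 2. The fits were tested on simulated data. DESeq2 1.42.0, other scaling and filters, an epithelial covariate, blocks and left-out libraries were alternatives.

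The members and gene lists were chosen with earlier results of these data known. Named were all 10 members, up to 4 called genes of a list by smallest p or, with none called, up to 3 of the highest mean CPM, and the 3 genes most like each member that averaged at least 1 CPM. Other genes are marked as chosen after their values were seen, or are those that DESeq2 called.

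Colon and ileum libraries with the same strain and number were taken as 1 mouse, since the study had 4 mice per strain. Deviations from group means correlated between -0.05 and 0.07 within a WT mouse, and between -0.17 and 0.27 within a Δchat mouse. Between colon and ileum of different mice they correlated between -0.15 and 0.18 with WT and between -0.30 and 0.22 with Δchat. Within Δchat mice 1 to 4 the values were 0.21, 0.27, 0.18 and -0.17. The ranges within and between mice overlap, so the correlations do not settle the pairing, which was taken from strain and number. Numbers do not pair mice across strains. No 2 libraries of the same group were copies, and pairs across groups were not compared. The library preparation gives no molecular identifiers, so that floors cover counting error only.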

Additional observations from a re-analysis of the deposited data

Results flagged for a closer look

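Within groups of 4 libraries, the gap of the highest or lowest library to its nearest neighbour was divided by the range, for 10 genes in 4 groups. It passed the limit of Dixon's test in 9 of 40 cases. About 1 in 20 would pass for independent, normally distributed values. The 10 genes vary together in the same libraries and CPM was not put on a log scale, so the count cannot be set against that rate. Of the 9, 6 were libraries of Δchat mouse 2. Klrg1 in this mouse was at 29.8 CPM in colon, with the other 3 libraries at 7.63 to 8.78 CPM, and at 57.4 CPM in ileum, with the others at 12.6 to 15.7 CPM. Il1rl1 was at 48.9 CPM in colon, with the others at 12.2 to 18.1 CPM, and at 46.0 CPM in ileum, with the others at 6.54 to 12.7 CPM. Gata3 in its ileum was at 56.4 CPM, with the others at 23.60 to 24.84 CPM, and Areg also at 56.4 CPM, with the others at 13.7 to 16.6 CPM.

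The other 3 were spread over mice. Areg was low in colon of WT mouse 1, at 6.29 CPM with the others at 11.9 to 12.7 CPM, and high in ileum of WT mouse 2, at 58.9 CPM with the others at 26.3 to 31.8 CPM. Il13 was low in colon of Δchat mouse 3, at 0.750 CPM with the others at 1.41 to 1.46 CPM. This is the library with 4068 CPM of epithelial markers, and the part of that share in the Il13 level was not tested.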

How the results depend on the processing

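Over the values of single members, 759 alternatives kept direction and side of the threshold, 22 lost a call, 8 gained one and 15 changed sign. Members called between strains were 0 in all alternatives, except with DESeq2 in ileum (2) and for the difference between tissues (1). With WT, members called between tissues were 9 with RLE factors, DESeq2 or immunoglobulin genes removed, which added Il4, 7 without a filter and 6 with the mouse as a replicate block. With Δchat the replicate block left 0 of 2.

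All genes called between strains in colon, 1, became 308 with DESeq2, 0 with a replicate block and 2 with an epithelial covariate. In ileum, 3 became 375 with DESeq2, 5 without a filter, and 0 with RLE factors, a filter of 1 CPM, a replicate block or an epithelial covariate. For the difference between tissues, 9 became 58 with DESeq2, 3 with the mouse as a block and 18 without both libraries of Δchat mouse 2, an alternative added after seeing the data. Why the tools differ was not tested. The replicate number pairs no mice across strains, and that block changed no call of a member.

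Leaving out 1 library gave 0 to 3 calls over all genes between strains in colon, 0 to 247 in ileum (247 without Δchat mouse 3, 11 without WT mouse 4, 7 without Δchat mouse 2), 2606 to 4160 between tissues with WT, 1315 to 2177 with Δchat, and 0 to 35 for the difference between tissues. Members called between tissues were 3 to 8 with WT (3 without WT mouse 1 in colon, 5 without WT mouse 2 in ileum) and 1 to 2 with Δchat. Signs changed in the colon strain value of Il9r (-0.32 to 0.057), the ileum strain values of Il4 (-0.58 to 0.15) and Il1rl1 (-0.35 to 0.91), the tissue values of Il1rl1 with WT (-0.31 to 0.11) and Δchat (-1.36 to 0.27) and of Areg with Δchat (-0.70 to 0.47), and the difference between tissues of Il1rl1 (-1.30 to 0.33). With the epithelial covariate the colon strain values of Il5 (-0.12), Il17rb (-0.041) and Il9r (0.25) changed sign. In colon the epithelial marker sums did not overlap between strains, so this covariate and the strain cannot be separated. The cause of these changes of sign was not tested.

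Alternatives were run for the 10 members and for the number of all genes called, and not for other named genes. Depth limits Il5 and Il4 most, with 0 to 50 and 10 to 56 counts in a library. A filter of 1 CPM removed Il5, and DESeq2 gave no adjusted p for it in colon. With 4 libraries a group, values that did not pass are not shown to be equal.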
